A study of Homo sapiens with 15 samples.

Results

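The genes described here are 40 genes of the cell cycle, 13 that act from replication licensing through S phase and 27 that act around mitosis, out of 48777 genes listed in the count table. They were listed by symbol for their textbook roles, by a rule that uses no measured value, although earlier results of these data were known when the list was made. Each symbol was matched to 1 Ensembl identifier through GENCODE 44. All 40 passed the filter on low counts in each comparison, and the least counted of them in any library was E2F1, with 128 reads in 1 library of day 20.

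H1, an established line of human embryonic stem cells, was profiled by bulk RNA-seq during cardiac differentiation on the laminins LN-521 and LN-221. Libraries were made on days 0, 4, 9, 11 and 20, 3 per day and 15 in all. Day 0 cells were undifferentiated and grown in Nutristem medium. Day 4 cells had reached confluence. CHIR99021, an inhibitor of GSK3 that activates Wnt signalling, and IWP2, which blocks the secretion of Wnt ligands, were given in RPMI 1640 with B27 without insulin, but the protocol texts in the labels number these days differently. By one, CHIR99021 was added at confluence on day 4 and IWP2 on day 7. By the other, cells of days 1 and 3 were in CHIR99021 and cells of day 5 in IWP2. Whether the day 4 cells had met CHIR99021 is thus not settled, while both texts place IWP2 between day 4 and day 9. Cells of days 11 and 20 were, by the second text, in RPMI 1640 with B-27 supplement. The cell line and, by the labels, the laminin pair were the same for all 15 libraries, although the deposited sample table lists LN-521 alone for day 0. The RNA-seq methods list a day 7 and no day 9, and the labels are followed here. The labels call the 3 libraries of a day biological replicates but do not say how the cultures were separated, so the p-values measure the spread between these libraries.

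In a dividing cell, the origins of replication are licensed when CDC6 and CDT1 load the MCM2-7 helicase, and S phase begins when the helicase is activated and polymerases copy the DNA with the clamp PCNA and nucleotides supplied by RRM2 and TYMS. Mitosis is driven by CDK1 with cyclins A and B and by the Polo and Aurora kinases, is held by the spindle checkpoint until kinetochores are attached, and ends when CDC20 turns on the anaphase-promoting complex. Transcription of the S phase genes is known to depend on E2F factors, and that of the mitotic genes on the MuvB complex with B-MYB (MYBL2) and FOXM1, which acts through a promoter element called CHR (cell cycle genes homology region). Pluripotent stem cells divide fast and spend much of their cycle in S phase, while cardiomyocytes leave the cycle as they mature.

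The promoters of 4 of these genes are shown because they carry the elements that separate the S phase set from the mitotic set and belong to genes the results turn on. MCM6 and TYMS are S phase genes, of which the first fell and the second did not, and CDC20 and PLK1 are the mitotic genes with the smallest adjusted p-values between day 0 and day 20. Each line gives the 150 bases before the RefSeq transcription start (GRCh38.p14), written 5′ to 3′ on the strand of the gene: chr2:135876444-135876593 on the minus strand for MCM6, and on the plus strand chr18:657503-657652 for TYMS, chr1:43358831-43358980 for CDC20 and chr16:23678739-23678888 for PLK1. Capitals mark every match to an E2F word (TTTCCCGC, TTTCGCGC, TTTGCCGC or TTTGGCGC), a CHR word (TTTGAA or TTCGAA) or the box CCAAT bound by NF-Y, on either strand. The PLK1 window lies inside the longer span that GENCODE 44 gives that gene. Neighbouring E2F words can share bases, as the words on opposite strands do in MCM6.
MCM6: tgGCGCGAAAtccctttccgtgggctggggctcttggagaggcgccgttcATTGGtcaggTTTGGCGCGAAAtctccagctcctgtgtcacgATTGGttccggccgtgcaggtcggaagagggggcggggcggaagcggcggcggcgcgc
TYMS: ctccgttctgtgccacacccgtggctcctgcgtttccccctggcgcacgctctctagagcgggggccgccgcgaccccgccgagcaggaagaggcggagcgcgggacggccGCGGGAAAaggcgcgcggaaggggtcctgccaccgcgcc
CDC20: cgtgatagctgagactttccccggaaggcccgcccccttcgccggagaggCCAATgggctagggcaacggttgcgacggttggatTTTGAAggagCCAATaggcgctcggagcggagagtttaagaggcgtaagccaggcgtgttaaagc
PLK1: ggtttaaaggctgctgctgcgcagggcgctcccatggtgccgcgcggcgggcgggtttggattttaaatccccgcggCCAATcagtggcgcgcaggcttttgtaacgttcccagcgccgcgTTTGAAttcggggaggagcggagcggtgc

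Of the 40 genes, 33 had a promoter in the RefSeq table, which spans 250 bases before to 50 bases after the start. An E2F word lay in 10 of the 11 S phase promoters (90.9%), in 3 of the 22 mitotic promoters (13.6%) and in 3.33% of all 27305 promoters. The CHR words showed the opposite pattern, with a match in 1 of 11 S phase promoters (9.09%), 15 of 22 mitotic promoters (68.2%) and 16.6% of all promoters. The S phase promoter with a CHR word was that of MCM6, at bases −246 to −241, outside the 150 bases printed above. The NF-Y box was frequent in both sets, in 72.7% of the S phase and 77.3% of the mitotic promoters, against 35.7% of all promoters. The 40 other DNA replication genes and 48 other G2 and mitosis genes that served for comparison split the same way: E2F words lay in 34.3% of 35 promoters of the former and 4.88% of 41 of the latter, and CHR words in 5.71% and 78.0%. Within the 150 bases before the start alone, E2F words were found in 63.6% of the S phase and 0.0% of the mitotic promoters, and CHR words in 0.0% and 36.4%, against 1.82% and 7.98% of all promoters. A match is a run of letters and was not tested for binding.

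**Figure D1:**
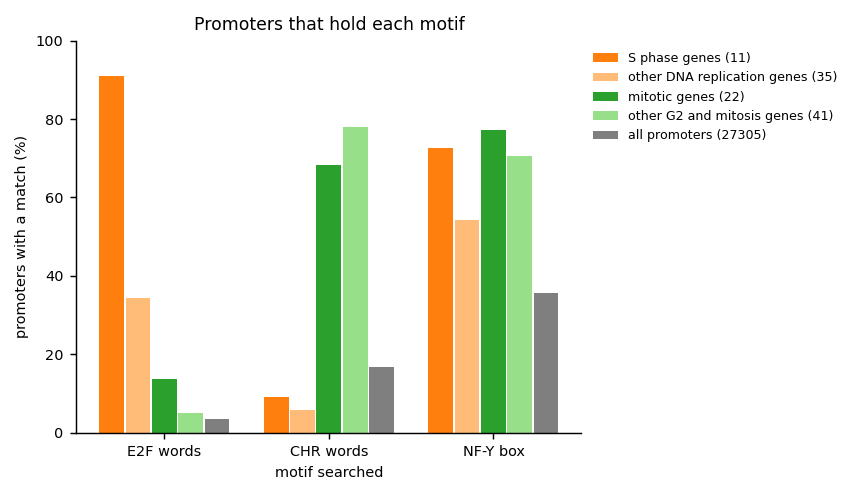
Share of promoters (%, vertical axis) with at least 1 match to each motif searched, for the S phase genes, the mitotic genes, the other DNA replication and mitosis genes and all promoters, with the number of promoters in brackets. The E2F bar is highest for the S phase genes (90.9%) and the CHR bars for the mitotic genes (68.2%) and the other G2 and mitosis genes (78.0%).

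The libraries held 11990302 to 33469703 counts (median 22867831). The day 20 library labelled plate 2_3 stood apart, with an RNA integrity number (RIN) of 6.1 against 8.8 to 10.0 in the other 14 and with 48230 genes counted at least once against 30886 to 39551, so the day 20 counts and the values most dependent on it are given with and without it. The 8 pluripotency markers summed to between 9290 and 11900 TPM on day 0 and 161 to 780 TPM on day 20, and the 8 cardiomyocyte markers to between 19.2 and 28.2 TPM on day 0 and 5500 to 23600 TPM on day 20. Markers of other lineages were present as well on day 20, where the 8 endoderm and yolk sac markers summed to 661 to 19200 TPM and the 8 mesenchymal markers to 1140 to 21900 TPM, with all 8 of each list above 0. In bulk RNA, fewer dividing cells and less of a transcript per dividing cell cannot be told apart, and the part of the changing mixture of cell types in the results below was not tested.

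All 40 genes were well expressed in the confluent cells of day 4. On the length-corrected TPM scale the highest was TOP2A, the topoisomerase that untangles sister chromatids, at 498 ± 31.2 TPM (SD, n = 3), and its libraries did not overlap those of the next gene. MCM3, PCNA, CCNB1, UBE2C, CDC20, CENPF and MCM7 followed, from 387 ± 25.3 to 278 ± 15.1 TPM, and neighbours in this order overlapped. The lowest were NUF2 at 32.2 ± 3.83, CENPA at 31.7 ± 0.481 and TYMS at 21.5 ± 3.47 TPM. NUF2 and CENPA overlapped each other, and TYMS lay below both. Together the 40 genes took 0.699 to 0.804% of all counts on day 4.

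**Figure D2:**
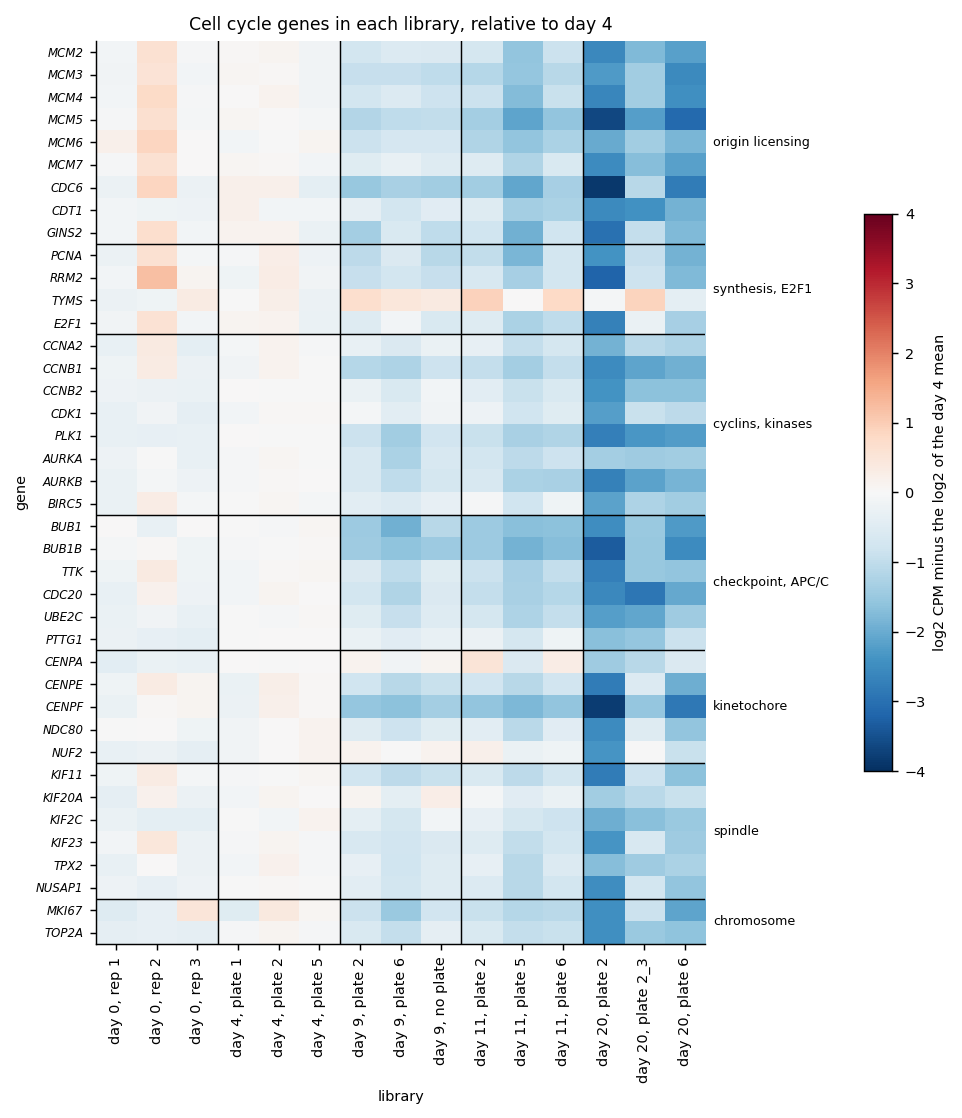
Level of each of the 40 genes in each of the 15 libraries, as log2 CPM (counts scaled to a common library size) minus the log2 of the gene's day 4 mean, with blue below and red above the day 4 mean and genes grouped by role. Day 20 is the bluest block, its plate 2_3 library is paler than the other day 20 libraries for most genes, TYMS is the row that stays pale or red after day 4, and replicate 2 of day 0 is red for most S phase genes.

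Values in each library are given below as CPM (counts per 1e6 reads after TMM scaling), always in the order replicates 1, 2 and 3 for day 0, plates 1, 2 and 5 for day 4, plate 2, plate 6 and the library with no plate number for day 9, plates 2, 5 and 6 for day 11, and plate 2, plate 2_3 and plate 6 for day 20. CPM is not corrected for gene length, so these values compare libraries and not genes. The TMM factor of plate 2_3 of day 20 was 1.42, against 0.897 and 0.922 in plates 2 and 6. This lowers its CPM relative to theirs for every gene.

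Among the genes that license origins, MCM5 (chr22:35400134-35425431, GRCh38), a subunit of the replicative helicase, had the largest difference between day 0 and day 20. MCM5 stood at 301, 482 and 291 CPM on day 0, 326, 312 and 293 on day 4 and 137, 153 and 155 on day 9. MCM5 was then at 119.6, 71.4 and 105 on day 11 and 24.98, 66.99 and 36.2 on day 20. From day 9 on, the 3 libraries of each day lay below all 3 of the preceding day in the series. MCM3, the helicase subunit with the highest TPM, stood at 351, 562 and 359 CPM on day 0, 407, 402 and 352 on day 4 and 202, 205 and 192 on day 9. MCM3 was then at 176, 133 and 179 on day 11 and 79.6, 147 and 65.8 on day 20. Its day 9 and day 11 libraries lay in the same stepwise order, and plate 2_3 of day 20 reached into the range of day 11. MCM6 stood at 184, 293 and 164 CPM on day 0, 149.9, 159 and 174 on day 4 and 89.1, 102 and 102 on day 9. MCM6 was then at 70.4, 53.9 and 67.5 on day 11 and 39.5, 61.3 and 45.1 on day 20. It was low by day 11 already, with day 11 and day 20 overlapping. CDC6, the loader of the helicase, stood at 82.2, 175 and 82.7 CPM on day 0, 110.5, 110.4 and 73.7 on day 4 and 33.8, 39.1 and 36.5 on day 9. CDC6 was then at 36.8, 22.6 and 38.1 on day 11 and 6.61, 44.8 and 14.02 on day 20. Day 9 and day 11 overlapped, and the day 20 libraries of CDC6 spread widely, with plate 2_3 above all libraries of days 9 and 11 and the other pair below them. The other 5 genes of this role were MCM2, MCM4, MCM7, CDT1, which works with CDC6, and GINS2, a subunit of the active helicase. Their means (SD, n = 3) ranged on day 4 from 43.6 ± 6.82 CPM for GINS2 to 351 ± 33.6 CPM for MCM4, and on day 20 from 13.5 ± 8.54 for GINS2 to 85.05 ± 41.9 for MCM4.

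Among the genes of DNA synthesis and nucleotide supply, PCNA, the sliding clamp of the polymerases, stood at 131, 235 and 146 CPM on day 0, 147, 186 and 132 on day 4 and 74.5, 102 and 70.96 on day 9. PCNA was then at 77.7, 42.9 and 92.1 on day 11 and 29.3, 80.8 and 41.1 on day 20. Day 9 lay below day 4 throughout, and later days overlapped. RRM2, the small subunit of ribonucleotide reductase, stood at 94.8, 239 and 111 CPM on day 0, 92.3, 128 and 92.8 on day 4 and 53.9, 61.3 and 54.9 on day 9. RRM2 was then at 65.9, 41.2 and 61.8 on day 11 and 11.2, 57.8 and 30.00 on day 20. Replicate 2 of day 0 was the highest of all 15 and plate 2 of day 20 the lowest. E2F1, a transcription factor that is itself a target of E2F, stood at 31.7, 52.5 and 32.1 CPM on day 0, 37.9, 38.3 and 29.3 on day 4 and 24.4, 32.2 and 23.1 on day 9. E2F1 was then at 24.2, 14.7 and 17.3 on day 11 and 5.32, 28.8 and 13.96 on day 20. Its libraries overlapped between each pair of adjacent days, and plate 2_3 of day 20 lay within the range of day 9.

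TYMS (chr18:657653-673578), thymidylate synthase, went against the rest of the S phase genes. It stood at 12.3, 12.6 and 18.1 CPM on day 0, 14.3, 17.01 and 12.2 on day 4 and 22.9, 19.5 and 18.4 on day 9. TYMS was then at 26.97, 14.5 and 24.8 on day 11 and 13.7, 26.9 and 11.1 on day 20. Each day 9 library lay above each day 4 library, days 11 and 20 held both high and low libraries, and on day 20 the high one was plate 2_3. The log2 fold change of TYMS from day 4 to day 9 was 0.54 ± 0.16 SE (adjusted p = 0.025), and it missed the threshold without plate 1 or plate 5 of day 4 or without plate 2 of day 9 (adjusted p = 0.0743, 0.0909 and 0.084) and in a fit of all 15 libraries (adjusted p = 0.298). TYMS exons overlap those of the antisense genes ENOSF1 and TYMSOS by up to 967 bases, and whether reads were counted by strand is not given in the sources used here, so the reads of these genes cannot be told apart. ENOSF1 stood between 25.2 and 33.6 CPM on day 4 and between 29.4 and 39.2 CPM on day 9, and at 63.9 CPM in plate 2_3 of day 20 against 28.9 and 33.7 CPM in the other pair. TYMSOS stayed between 0.684 and 2.57 CPM in all 15 libraries.

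**Figure D3:**
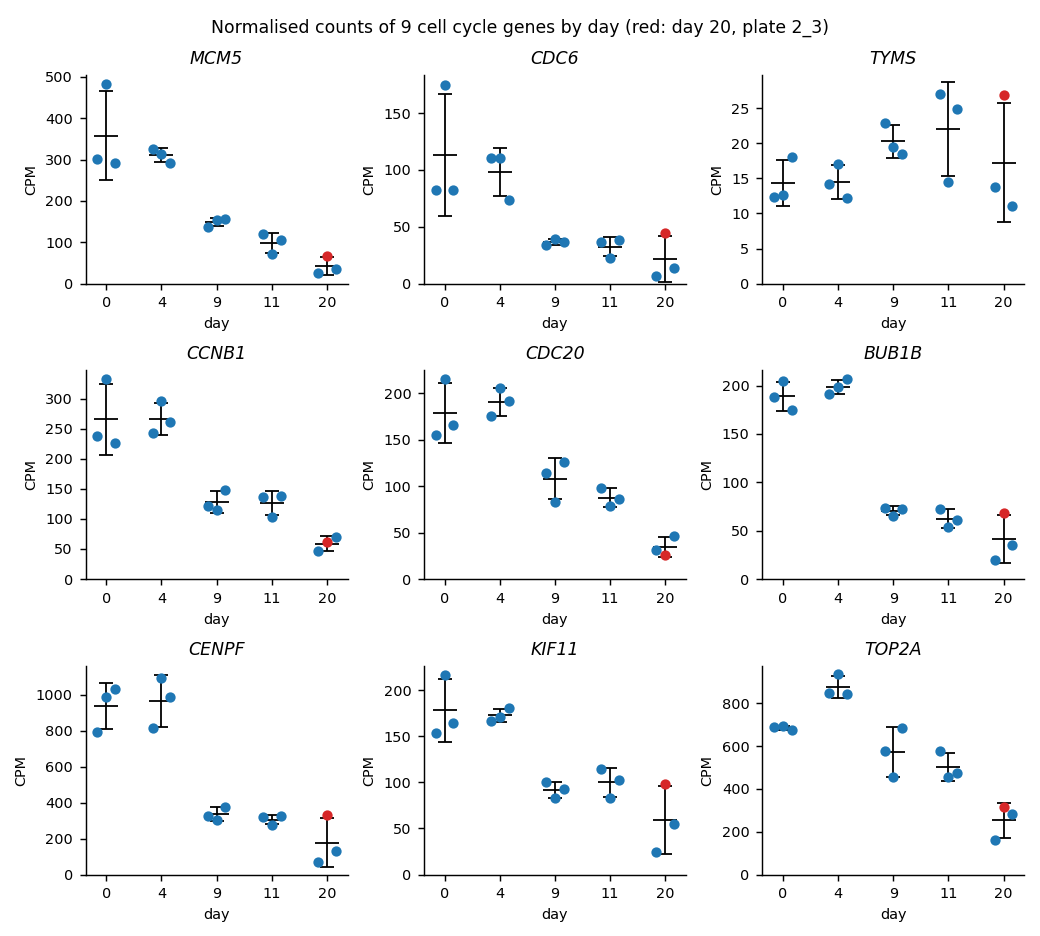
CPM (vertical axes, from 0) of 9 genes by day, 1 point per library, with a horizontal bar at the mean and an error bar of 1 SD over the 3 libraries. The red point is the day 20 library plate 2_3. MCM5 points are lower at each step from day 4, those of TYMS are not, and the red point sits at the level of days 9 and 11 in BUB1B, CENPF and KIF11 and above them in CDC6.

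Among the mitotic cyclins and kinases, CCNB1 (cyclin B1), the main partner of CDK1, stood at 238, 333 and 226 CPM on day 0, 243, 295 and 261 on day 4 and 121, 114 and 148 on day 9. CCNB1 was then at 137, 103 and 138 on day 11 and 45.97, 61.2 and 70.05 on day 20. Days 9 and 11 overlapped, below day 4, and day 20 lay below both. PLK1 (chr16:23677656-23690367), the Polo kinase of mitotic entry and spindle assembly, stood at 102, 99.5 and 102 CPM on day 0, 127, 125 and 123 on day 4 and 69.2, 47.8 and 74.02 on day 9. PLK1 was then at 67.4, 50.8 and 53.8 on day 11 and 18.9, 24.98 and 26.7 on day 20. All 3 day 4 libraries lay above all 3 of day 0, and all 3 day 20 libraries, plate 2_3 included, lay below those of every earlier day. CDK1 itself stood at 107, 121 and 103 CPM on day 0, 123, 137 and 138 on day 4 and 125, 99.6 and 122 on day 9. CDK1 was then at 115, 77.1 and 95.2 on day 11 and 28.8, 71.5 and 63.8 on day 20. Its day 9 libraries still overlapped those of day 4, and all 3 of its day 20 libraries lay below those of day 11. The other members of this role were CCNA2 and CCNB2 (cyclins A2 and B2), AURKA, AURKB and BIRC5 (survivin, which works with AURKB in the chromosomal passenger complex). AURKA was the gene with the closest agreement among the day 20 libraries, at 41.5 ± 0.82 CPM against 109 ± 4.92 on day 4 (SD, n = 3). That agreement depends on the TMM scaling. AURKA had 1021 reads of 26858099 in plate 2, 888 of 15675095 in plate 2_3 and 698 of 18384192 in plate 6.

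In the checkpoint group, CDC20 (chr1:43358981-43363203), the activator of the anaphase-promoting complex, stood at 155, 215 and 165 CPM on day 0, 175, 205 and 192 on day 4 and 114, 83.2 and 126 on day 9. CDC20 was then at 98.5, 78.1 and 85.7 on day 11 and 31.7, 25.9 and 45.97 on day 20. After TMM scaling plate 2_3 was the lowest of all 15 libraries for CDC20. By library size alone plate 2 was lower, with 763 reads of 26858099 against 562 of 15675095. UBE2C, the ubiquitin-conjugating enzyme of that complex, stood at 101, 111 and 99.04 CPM on day 0, 120.4, 118 and 127 on day 4 and 86.9, 63.9 and 85.2 on day 9. UBE2C was then at 74.2, 51.4 and 62.4 on day 11 and 26.5, 28.8 and 45.7 on day 20. Days 0 and 4 did not overlap for UBE2C, and day 20 lay below all earlier days. BUB1B (BubR1), a kinase-like checkpoint protein that inhibits CDC20, stood at 188, 205 and 175 CPM on day 0, 192, 198 and 206 on day 4 and 73.7, 65.4 and 72.7 on day 9. BUB1B was then at 72.9, 53.8 and 60.97 on day 11 and 19.9, 68.8 and 34.8 on day 20. The 3 libraries of day 9 lay far below those of day 4, and exons of BUB1B are shared with a read-through transcript into PAK6. BUB1 and TTK (Mps1), checkpoint kinases, and PTTG1 (securin), the protein whose destruction starts anaphase, made up the group, with means of 292 ± 12.5, 121 ± 8.92 and 105 ± 2.18 CPM on day 4 and 72.1 ± 27.6, 33.8 ± 13.4 and 42.1 ± 13.5 CPM on day 20 (SD, n = 3).

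At the kinetochore, CENPF (chr1:214603185-214664574), a large coat protein, stood at 792, 986 and 1031 CPM on day 0, 813, 1096 and 989.8 on day 4 and 326, 305 and 378 on day 9. CENPF was then at 318, 275 and 324 on day 11 and 69.5, 331 and 132 on day 20. The 6 libraries of days 0 and 4 lay above all later ones, and on day 20 plate 2_3 alone stayed at the level of days 9 and 11. CENPA, the histone H3 variant that marks centromeres, stood at 12.8, 14.2 and 13.9 CPM on day 0, 17.3, 17.1 and 17.2 on day 4 and 18.8, 15.6 and 18.4 on day 9. CENPA was then at 24.4, 11.6 and 20.97 on day 11 and 6.44, 7.91 and 11.5 on day 20. Its day 20 libraries lay below all earlier ones, and days 4, 9 and 11 overlapped. NUF2, a subunit of the NDC80 complex that binds microtubules, stood at 24.2, 24.9 and 23.1 CPM on day 0, 26.6, 29.5 and 32.6 on day 4 and 32.6, 28.9 and 32.4 on day 9. NUF2 was then at 34.1, 24.5 and 25.9 on day 11 and 5.78, 28.9 and 15.7 on day 20. Plate 2_3 was within the range of days 4 to 11 for NUF2 while the other pair of day 20 lay below every earlier library. NDC80 and the motor CENPE had means of 59.4 ± 5.56 and 183 ± 31.6 CPM on day 4 and 24.00 ± 16.02 and 66.3 ± 52.4 CPM on day 20 (SD, n = 3).

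Among the spindle genes, TPX2, a microtubule nucleation factor that activates AURKA, stood at 184, 231 and 193 CPM on day 0, 211, 254 and 219 on day 4 and 181, 130.2 and 157 on day 9. TPX2 was then at 179.6, 106 and 154 on day 11 and 69.95, 84.6 and 95.02 on day 20. KIF11, the motor that separates the spindle poles, stood at 153, 217 and 164 CPM on day 0, 166, 171 and 181 on day 4 and 100.2, 82.6 and 92.8 on day 9. KIF11 was then at 114, 83.3 and 103 on day 11 and 24.7, 97.9 and 54.8 on day 20. Day 9 lay below day 4 for both genes, and day 20 lay below day 11 for TPX2 but not for KIF11, whose plate 2_3 library reached the day 11 range. KIF20A, a motor of cytokinesis, stood at 103, 148 and 111 CPM on day 0, 121, 140.5 and 133 on day 4 and 140.2, 99.2 and 157 on day 9. KIF20A was then at 126, 95.6 and 109.9 on day 11 and 49.96, 62.8 and 71.1 on day 20. Its day 9 libraries overlapped those of days 0 and 4. KIF2C, KIF23 and NUSAP1, a microtubule-depolymerising motor, a motor of the central spindle and a spindle-bundling protein, had means of 115 ± 10.8, 115 ± 8.03 and 175 ± 4.29 CPM on day 4 and 35.7 ± 5.62, 46.04 ± 25.5 and 64.7 ± 36.9 CPM on day 20 (SD, n = 3).

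TOP2A stood at 688, 695 and 677 CPM on day 0, 847, 938 and 845 on day 4 and 578, 455 and 687 on day 9. TOP2A was then at 576, 455 and 474 on day 11 and 160.5, 314 and 285 on day 20. Its 3 day 0 libraries lay close together and all below day 4, and day 20 lay below all earlier days. MKI67, whose protein Ki-67 coats mitotic chromosomes and is the usual histological marker of dividing cells, stood at 242, 277 and 487 CPM on day 0, 250.2, 456 and 369 on day 4 and 192, 123 and 204 on day 9. MKI67 was then at 186, 159 and 167 on day 11 and 62.97, 192 and 80.6 on day 20. Of the 40 genes it had the largest coefficient of variation on day 4, 28.8%, and on day 20 its plate 2_3 library was again at the level of day 9.

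From day 0 to day 4 none of the 40 genes passed the threshold (edgeR's quasi-likelihood test, Benjamini-Hochberg adjusted p under 0.05), where 0.0% of 20964 genes did, and DESeq2 also called 0. At an unadjusted p under 0.05 there were 4 of 40, all mitotic (KIF2C, TOP2A, PTTG1 and PLK1), against 3.53% of all genes. The libraries did not overlap for 11 genes, all mitotic and all higher on day 4, and for 0 genes lower, against 4.93% and 5.08% of all genes. KIF2C had the largest value upward, with a log2 fold change of 0.34 ± 0.13 SE (adjusted p = 0.885), and RRM2 the largest downward, with −0.50 ± 0.32 SE (adjusted p = 0.885). The values of NUF2 and CENPA were 0.28 ± 0.14 SE (adjusted p = 0.885) and 0.33 ± 0.15 SE (adjusted p = 0.885). The median log2 fold change was 0.12 for the 27 mitotic genes and −0.19 for the 13 S phase genes, beside −0.01 for all genes tested. Over all 40 it was 0.06, and it was −0.04 without replicate 1 of day 0.

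From day 4 to day 9, 30 of the 40 genes fell and 1, TYMS, rose, where 24.7% of 21252 genes fell and 24.3% rose. Both protocol texts place IWP2 in this interval, and by 1 of them CHIR99021 was added on day 4. The fall took in 11 of 13 S phase genes and 19 of 27 mitotic genes, with all 9 licensing genes among them. The largest falls were in CENPF, with a log2 fold change of −1.47 ± 0.16 SE (adjusted p = 0.000168), BUB1B with −1.44 ± 0.11 SE (adjusted p = 2.67e-05), BUB1 with −1.41 ± 0.20 SE (adjusted p = 0.000611) and CDC6 with −1.37 ± 0.17 SE (adjusted p = 0.000279). MCM5 fell by a log2 value of −1.01 ± 0.12 SE (adjusted p = 0.000213) and CCNB1 by −1.005 ± 0.14 SE (adjusted p = 0.000669). For 33 genes every day 9 library lay below every day 4 library, as it did for 29.9% of all genes. The median log2 fold change was −0.67 for the S phase and −0.58 for the mitotic genes, beside 0.01 for all genes. The 9 genes not past the threshold were E2F1, CCNA2, CCNB2, CDK1, PTTG1, CENPA, NUF2, KIF20A and KIF2C, with log2 fold changes between −0.35 (E2F1) and 0.14 (NUF2). Between 26 and 31 genes were called when each library was left out in turn, where 38.2 to 47.9% of all genes were. A fit of all 15 libraries, with 1 shared estimate of the spread, called 12, all lower, and 13.2% of all genes lower, so the calls dropped over all genes as well.

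From day 9 to day 11 none of the 40 genes passed the threshold in edgeR, where 2.39% of 20679 genes did, and DESeq2 called 1, MCM6, where it called 8.1% of all genes. At an unadjusted p under 0.05 there were 2, MCM6 with a log2 fold change of −0.62 ± 0.15 SE (adjusted p = 0.0781) and MCM5 with −0.61 ± 0.20 SE (adjusted p = 0.175), against 17.0% of all genes. Libraries did not overlap for 5 of the 40 genes, all lower on day 11, close to the 12.4% of all genes lower without overlap. These 5 were subunits of the helicase (MCM3 to MCM7). Other values of size were E2F1 with −0.52 ± 0.23 SE (adjusted p = 0.318) and CDT1 with −0.50 ± 0.25 SE (adjusted p = 0.364), and the largest upward value was 0.12 ± 0.20 SE (adjusted p = 0.821) for BIRC5. The median was −0.33 for the S phase and −0.17 for the mitotic genes, beside 0.00 for all genes. With plate as a block the median over the 40 genes was −0.05, against −0.20 without the block. BIRC5 turned to −0.03 without plate 2 of day 11.

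**Figure D4:**
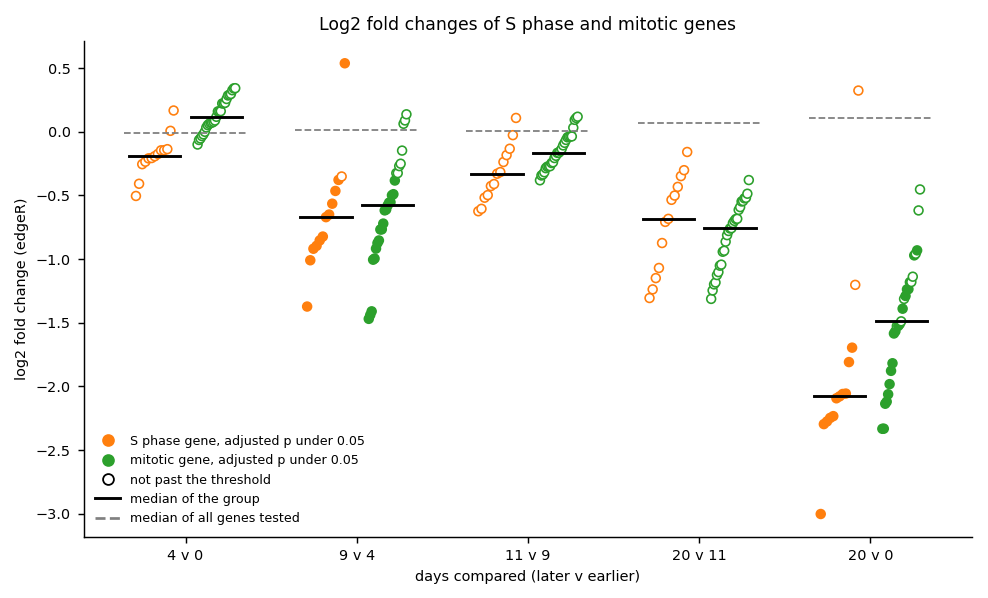
Log2 fold change (edgeR, vertical axis) of each S phase gene (orange) and mitotic gene (green) in the 5 comparisons of days, filled where the adjusted p was under 0.05. Black bars are group medians and the dashed line is the median of all genes tested. Filled points are found from day 4 to day 9 and from day 0 to day 20, and all 40 points lie below 0 from day 11 to day 20 (E2F1 lay above 0 under other scalings), where none is filled.

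From day 11 to day 20 all 40 log2 fold changes were below 0, that of E2F1 not under other scalings, but none passed the threshold in edgeR, where 1.55% of 21398 genes did. At an unadjusted p under 0.05 there were 17 of 40, against 16.7% of all genes, and the libraries did not overlap for 21 genes lower on day 20, against 10.6%. The smallest adjusted p-values were those of PLK1, with a log2 fold change of −1.25 ± 0.26 SE (adjusted p = 0.0604), CDC20 with −1.31 ± 0.28 SE (adjusted p = 0.0618), KIF2C with −1.04 ± 0.26 SE (adjusted p = 0.0953) and CCNB2 with −1.18 ± 0.30 SE (adjusted p = 0.096). The 8 cyclins and kinases were the only role group in which every gene was lower without overlap. E2F1 had the smallest value, −0.16 ± 0.56 SE (adjusted p = 0.924), and its sign turned with upper-quartile scaling (0.08), with scaling by library size alone (0.06), without plate 2 of day 11 (0.03) and without plate 2 of day 20 (0.22). The median was −0.68 for the S phase and −0.76 for the mitotic genes, beside 0.07 for all genes.

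This comparison rested on plate 2_3 of day 20 more than on any other library. Without it the median over the 40 genes was −1.17, 38 genes had an unadjusted p under 0.05 (20.7% of all genes did), and 3 passed the adjusted threshold (2.35% of all genes did): MCM5 with −1.68 ± 0.31 SE (adjusted p = 0.0469), MCM7 with −1.59 ± 0.28 SE (adjusted p = 0.0456) and MKI67 with −1.24 ± 0.22 SE (adjusted p = 0.0432). PLK1 then stood at −1.33 ± 0.26 SE (adjusted p = 0.0522) and CDC20 at −1.17 ± 0.25 SE (adjusted p = 0.0616). With all libraries, DESeq2 called 8.74% of all genes and 9 of the 40 (MCM7, CDT1, CCNB1, CCNB2, PLK1, AURKB, BIRC5, CDC20 and KIF2C), edgeR with upper-quartile or library-size scaling called CDC20 alone (1.3% and 1.28% of all genes). A fit of all 15 libraries called 17, all lower, where it called 4.26% of all genes lower.

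Over the whole course, from day 0 to day 20, 30 of the 40 genes fell and none rose in edgeR or DESeq2, where 11.3% of 21988 genes fell and 16.1% rose. This comparison shares its libraries with the others and is the net of the steps above. MCM5 had the largest fall, with a log2 fold change of −3.00 ± 0.45 SE (adjusted p = 0.0028), a value lower than those of all but 1.96% of genes tested. The smallest adjusted p-values were those of PLK1, with −2.06 ± 0.26 SE (adjusted p = 0.00131), CDC20 with −2.33 ± 0.30 SE (adjusted p = 0.00151), CDT1 with −2.06 ± 0.27 SE (adjusted p = 0.00159) and CCNB1 with −2.12 ± 0.30 SE (adjusted p = 0.00212). All 9 licensing genes and all 6 checkpoint genes fell, as did 7 of the 8 cyclins and kinases, 4 of the 6 spindle genes, 2 of the 4 synthesis genes, 1 of the 5 kinetochore genes and 1 of the 2 chromosome genes. The libraries did not overlap for 38 genes lower on day 20, where 22.5% of all genes did so, and the exceptions were TYMS, at 0.32 ± 0.41 SE (adjusted p = 0.601), and NUF2, at −0.45 ± 0.52 SE (adjusted p = 0.559). The median was −2.08 for the S phase and −1.49 for the mitotic genes, beside 0.11 for all genes. Without plate 2_3 the fall took in 37 genes with a median of −2.05, all but TYMS, CENPA and NUF2, where 17.9% of all genes fell, and TYMS turned to −0.20. MCM5 then stood at −3.53 ± 0.34 SE (adjusted p = 0.000615), and PLK1, CDC20, CDT1 and CCNB1 still passed, with log2 fold changes between −2.19 and −2.01. Without replicate 2 of day 0, the library with the highest S phase values, 20 genes were called, all lower, where 5.81% of all genes fell.

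Related genes that were not among the 40 were read from 3 lists, of 40 other DNA replication genes, 48 other G2 and mitosis genes and 18 transcription regulators of the cycle. From day 4 to day 9, where 24.7% of all genes fell and 24.3% rose, 27 of the other replication genes fell and 2 rose (ORC6 and CCNE2). Their range was from −1.73 ± 0.11 SE (adjusted p = 9.03e-06) for POLA1, the catalytic subunit of DNA polymerase alpha, to 1.06 ± 0.25 SE (adjusted p = 0.00775) for CCNE2, cyclin E2. Of the other mitosis genes 30 fell and 3 rose (PBK, CDC25B and NEK2), from −1.42 ± 0.19 SE (adjusted p = 0.000556) for HMMR, a spindle protein, to 1.24 ± 0.23 SE (adjusted p = 0.00267) for NEK2, a centrosomal kinase. From day 0 to day 20, where 11.3% of all genes fell and 16.1% rose, 28 and 30 genes of these lists fell and none rose. They were led by ORC1, of the origin recognition complex, at −3.37 ± 0.41 SE (adjusted p = 0.00124), and PKMYT1, an inhibitory kinase of CDK1, at −2.38 ± 0.44 SE (adjusted p = 0.00627). Without plate 2_3, 34 and 42 genes of these lists fell and none rose, where 17.9% of all genes fell and 20.7% rose. ORC1 then stood at −3.62 ± 0.44 SE (adjusted p = 0.00132) and PKMYT1 at −3.06 ± 0.25 SE (adjusted p = 0.000385). Between days 11 and 20 a single gene of the 106 in the 3 lists passed the threshold, a smaller share than the 1.55% of all genes. It was CCNF (cyclin F), at −1.28 ± 0.24 SE (adjusted p = 0.0465). At an unadjusted p under 0.05 there were 33 of the 106 genes in that step, a larger share than the 16.7% of all genes. Between days 0 and 4 and days 9 and 11 edgeR called none, with 1 of 106 genes (of the mitosis list) at an unadjusted p under 0.05 in the former and 10 in the latter, smaller shares than the 3.53% and 17.0% of all genes. Without plate 2_3, 7 genes of the 3 lists passed between days 11 and 20, all lower, where 2.35% of all genes passed. CCNF then stood at −1.24 ± 0.22 SE (adjusted p = 0.0465).

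The regulators moved in both directions, with 4 lower and 6 higher from day 4 to day 9 and 3 lower and 2 higher from day 0 to day 20. Against 24.7% of all genes lower and 24.3% higher in the first comparison, and 11.3% and 16.1% in the second, these counts of 18 genes are not a result about the list. MYBL2 (B-MYB), which drives mitotic genes with the MuvB complex, had the largest fall of the list in both comparisons, at −0.89 ± 0.11 SE (adjusted p = 0.000337) from day 4 to day 9 and −3.04 ± 0.42 SE (adjusted p = 0.00205) from day 0 to day 20. FOXM1, the other activator of mitotic genes, fell as well, at −0.36 ± 0.11 SE (adjusted p = 0.0293) and −1.65 ± 0.36 SE (adjusted p = 0.0112). RBL1 and E2F7 also fell from day 4 to day 9, and E2F3 from day 0 to day 20. RB1 and RBL2 rose in both comparisons. The log2 values of RB1 were 0.42 ± 0.10 SE (adjusted p = 0.00917) and 1.10 ± 0.24 SE (adjusted p = 0.0117). Those of RBL2 were 0.51 ± 0.12 SE (adjusted p = 0.00676) and 1.22 ± 0.27 SE (adjusted p = 0.0126). RB1, RBL2 and RBL1 are pocket proteins that bind E2F factors and repress their targets, so this family moved in both directions. Without plate 2_3, from day 0 to day 20, 5 regulators fell and 3 rose, where 17.9% of all genes fell and 20.7% rose. MYBL2 then stood at −3.36 ± 0.41 SE (adjusted p = 0.00139), FOXM1 at −1.98 ± 0.32 SE (adjusted p = 0.00391), RB1 at 1.10 ± 0.22 SE (adjusted p = 0.00777) and RBL2 at 1.34 ± 0.23 SE (adjusted p = 0.00474). E2F5, E2F6 and the MuvB subunits LIN37 and LIN54 rose from day 4 to day 9, LIN37 most, at 1.65 ± 0.29 SE (adjusted p = 0.0018). That value rests on few reads, 36, 17 and 20 on day 4 and 38, 72 and 89 on day 9.

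The share of all counts taken by the 40 genes, which uses no scaling, lay between 0.688 and 0.812% on day 0, 0.43 and 0.497% on day 9, 0.328 and 0.469% on day 11, and 0.123, 0.42 and 0.192% in plates 2, 2_3 and 6 of day 20. The spread between libraries of a day was smallest on day 4, with a median coefficient of variation of 7.8%, and largest on day 20, with 39.0%. On day 20 AURKA varied least (1.96%) and CDC6 most (92.9%), in CPM after TMM scaling.

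Within a day, many of the 40 genes had their highest or lowest value in the same library. The shares of all genes with their highest or lowest value in each library were not counted. The counts below thus do not set the cell cycle genes apart from other genes. Replicate 2 of day 0 was the highest of its day for 30 of 40 genes. Its S phase genes had a median of 0.62 log2 units above the day 4 mean, against −0.12 and −0.07 in replicates 1 and 3, while its mitotic genes had a median of −0.02. Plate 6 of day 9 was the lowest of its day for all 27 mitotic genes and the highest for 10 of 13 S phase genes. It also had the highest sums of cardiomyocyte markers (1350 TPM against 451 and 229), endoderm and yolk sac markers (1160 against 515 and 446) and mesenchymal markers (1960 against 634 and 675). Its sums of pluripotency markers (2830 against 2500 and 2510) and epithelial markers (6790 against 4950 and 5610) were the highest as well. Not every marker followed its sum. FOXA2 and SOX17 had 787 and 384 reads in plate 6, against 1019 and 781 in plate 2, which had fewer counts in all. Plate 5 of day 11 was the lowest of its day for 38 of 40 genes, and its cardiomyocyte markers summed to 21000 TPM against 6070 and 3910 TPM in plates 2 and 6. Its sum of mesenchymal markers was lower (1040 against 2860 and 6110 TPM), as was that of endoderm and yolk sac markers (771 against 1400 and 1940). The sum of endothelial markers was higher (355 against 198 and 153). In the endoderm and yolk sac list TTR, FOXA2 and SOX17 went the other way, with 4669, 1128 and 136 reads in plate 5. Their reads were 3860, 774 and 82 in plate 2 and 2089, 933 and 78 in plate 6, although both libraries were deeper. Plate 2 of day 20 was the lowest of its day for 36 of 40 genes, and plate 2_3 the highest for 28, although their cardiomyocyte markers were close, at 23600 and 22200 TPM, against 5500 TPM in plate 6. Endoderm and yolk sac markers were at 16600, 661 and 19200 TPM in plates 2, 2_3 and 6. The part of cell composition in these differences was not tested.

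High values in plate 2_3 were uneven among the genes. Its CPM exceeded the mean of the other day 20 pair for 34 of 40 genes and was at least 2-fold higher for 18, from a ratio of 0.666 for CDC20 to 3.42 for CENPE and 4.34 for CDC6. The median ratio was 2.18 for the S phase genes and 1.39 for the mitotic genes. The share of all genes with higher CPM in plate 2_3 was not counted. Because of the high TMM factor of plate 2_3, scaling by library size alone would raise every ratio. Which genes lie below equal CPM thus depends on the scaling. Across the 27 mitotic genes the log2 ratio went with exon length, with a Spearman's rho of 0.712, and across the 13 S phase genes rho was 0.104. The genes share the same 3 libraries and are not independent. Among 252 genes of at least 2000 exon bases with at most 2 reads in all the libraries of days 0 to 11 together, 251 were counted in plate 2_3, at a median of 7.19 reads per kilobase, against 169 in plate 6 and 42 in plate 2. The table lists only genes with at least 1 read, so most genes chosen in this way had to be counted on day 20. Reads at that density over the exons of the 40 genes would come to a median of 2.41% of their counts in plate 2_3, and at most 8.14%, for CENPA. The lower RIN, the wider set of counted genes and the lineage markers all set this library apart, and their parts in its cell cycle values were not tested.

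**Figure D5:**
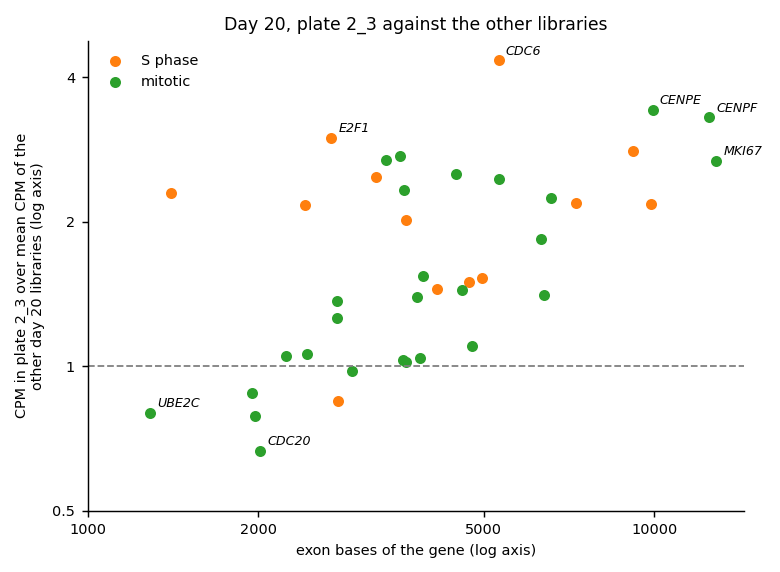
Ratio of CPM in the day 20 library plate 2_3 to the mean CPM of the other day 20 libraries (vertical, log axis) against the exon length of the gene (horizontal, log axis), for the S phase (orange) and mitotic (green) genes. The dashed line marks equal CPM after TMM scaling, and scaling by library size alone would move all points up. Short mitotic genes such as CDC20 (0.666) and UBE2C (0.8) lie below the line and long ones such as CENPE (3.42) and CENPF (3.3) above it, while the S phase genes show no such order.

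Exons of 12 of the 40 genes overlap those of another counted gene, 10 on the other strand (among them MCM7 with AP4M1, CCNA2 with EXOSC9, PLK1 with ERN2 and NUSAP1 with OIP5) and 4 on the same strand, and their values may hold reads of the neighbour.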

How the data were processed

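The members and all gene lists were chosen with earlier results of these data known. The authors aligned paired-end reads of ribosomal RNA-depleted stranded libraries to hg38 (STAR 2.5.2b) and deposited the unnormalized featureCounts 1.5.1 counts of each gene, and TPM values made from them. From the deposited sample table came the RIN (a score), the fraction of uniquely mapped reads and the lane. Depth (11990302 to 33469703 counts) and the spread between libraries set the standard errors.

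Here, each comparison was fitted on the counts of its 6 libraries with edgeR 4.0.16 in R 4.3.3: filterByExpr (minimum count 10, minimum total 15), TMM, robust quasi-likelihood fit and two-sided test without covariates, Benjamini-Hochberg adjustment over all genes tested, threshold 0.05. The standard error is the log2 fold change divided by the square root of F. CPM values use TMM factors over all 15 libraries. In simulated day 4 and day 0 counts of 20964 genes with 200 changed, edgeR made 190 calls, of which 4.21% were false. The changes were 4-fold up or down, at the spread fitted to those days. Smaller changes and the wider spread of day 20 were not simulated. All 40 genes could be named, with values in every library for at least the member of each role with the highest TPM and the one with the largest change, and log2 fold changes for the smallest adjusted p-values and largest changes in each direction. BUB1, CCNB1 and NUF2 were added after their values were seen, as were single companion genes other than the extremes of each list. Symbols and exons come from GENCODE 44, and ranks from scipy 1.17.1 (Python 3.11.15). Alternatives tried included DESeq2 1.42.0, other scalings and filters, all 15 libraries in 1 fit, limma 3.58.1 on log2(TPM + 1) and log2(TPM + 0.1), removal of the 20 genes with most counts, an adjusted p under 0.01, plate or lane as a block, each library left out, and the 150-base promoter window.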

Additional observations from a re-analysis of the deposited data

How the results depend on the processing

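Of the 5 median log2 fold changes, that from day 0 to 4 lay between −0.0378 and 0.135 with 1 library left out. Those from day 4 to 9, 9 to 11, 11 to 20 and 0 to 20 moved by less than 1 SD between replicates under every alternative. The library medians on day 20 spread from −2.485 to −1.394 log2 units against the day 4 mean, so that SD was wide there. A move within the SD thus does not show that a median was stable. The median fall from day 11 to 20 was larger without the day 20 library of lowest RIN. The median fall from day 9 to 11 was smaller with plate as a block. Calls from day 4 to 9 numbered 12 in a fit of all 15 libraries against 31, and 26 to 31 with 1 library left out. From day 9 to 11, DESeq2 called 1 gene. From day 11 to 20, DESeq2 called 9, upper-quartile scaling 1, library-size scaling 1, all 15 libraries 17, and leaving 1 library out 0 to 3. From day 0 to 20, 18 were called at an adjusted p under 0.01 and 20 to 37 with 1 library left out. The log2 fold change of E2F1 from day 11 to 20 turned to 0.0818 with upper-quartile and 0.0597 with library-size scaling and lay between −0.96 and 0.22 with 1 library left out. That of TYMS from day 0 to 20 turned to −0.0506 with no filter on low counts and lay between −0.20 and 0.50 with 1 library left out, and that of BIRC5 from day 9 to 11 between −0.0272 and 0.31. The causes were not tested.

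Plate numbers shared by days 9, 11 and 20 were used as a block. Same-plate libraries, with day means removed, had a Pearson's r over all genes of 0.139 and 0.356 from day 9 to 11. From day 11 to 20 it was −0.179, 0.00371 and 0.378. Whether libraries of the same plate number are paired was not tested, and the main fits left plate out. With the plate block 0 of the cell cycle genes were called in either comparison, with medians of −0.05 and −0.89. From day 9 to 11 that block called 9.53% of all genes, against 2.39% without it. From day 11 to 20 it called 0.014% of all genes, against 1.55%. With the lane block 30, 0 and 0 were called from day 4 to 9, 9 to 11 and 11 to 20. Of all genes, 43.3%, 3.38% and 0.64% were called. Upper-quartile scaling moved the median of all genes from 0.07 to 0.18 from day 11 to 20, and library-size scaling from 0.11 to 0.23 from day 0 to 20. Depth was sufficient for every member, the lowest count being 128 reads, so the spread between libraries set the precision.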
